A study of Solanum lycopersicum with 21 samples.

Results

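The change of leaf transcripts between irrigation and the first recovery from drought was compared between wild-type tomato and a strigolactone-depleted line. The quantity compared was the interaction, that is the change in the depleted line minus the change in the wild type, and 12 of the 21 libraries of the study form it. They fall into 4 groups of 3 biological replicates of the cultivar M82. These are irrigated wild type, wild type at recovery 1, the irrigated depleted line and the depleted line at recovery 1. The other 9 libraries, which enter the shared estimate of spread, are both genotypes at recovery 2, after a second drought, and irrigated wild type sprayed with 5 µM of GR24 5DS, a synthetic strigolactone analogue, 24 h before sampling. The study design gives a plant age of about 3 weeks. No separate age was taken from it for groups sampled at different times, so ages may differ between groups. The depleted plants are 1 line, 6936, in which the gene CCD7 is silenced, and the labels give 70 to 80% less strigolactone in its roots and root exudates, with no value for leaves.

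Strigolactones are carotenoid-derived hormones, and CCD7 is a carotenoid cleavage dioxygenase early in their synthesis. They are best known for holding back shoot branching and for signalling to fungi and parasitic plants in the soil. In leaves they are also known to raise the response of stomata to abscisic acid, the hormone of water shortage. Whether plants depleted of them return to the irrigated state differently after a drought is the question behind the interaction, which the design described next can answer only in part.

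Drought was imposed by lifting the plants and setting them in vermiculite wetted with 20 ml of water, and the recovery samples were taken after watering had been resumed. The irrigated plants were sampled before any transfer, under the time label 0, while recovery 1 carries the label 31, for which no unit is given. Drought, transfer and sampling time therefore cannot be told apart within a response. The interaction sets 2 such responses against each other. Only what both genotypes share cancels in it. A genotype difference in the effect of transfer or of sampling time cannot be told apart from one in recovery from drought. A replicate pooled at least 3 leaves from different plants. Since 5 plants are named, apparently for each condition, the replicates of a group may share plants, in which case p-values measure a spread that is in part technical. Leaf samples are bulk tissue, in which fewer cells of a type and less RNA per cell cannot be told apart.

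Total counts of the 12 libraries ranged from 23517459 to 34997305, so that 3 counts in 1 library, taken as its floor, stood for 0.0843 to 0.144 CPM (library-size-normalised counts, scaled by TMM). Of 35039 IDs in the table, 20373 passed the filter on low counts and were tested. No source used here pairs the IDs with gene names. Gene functions, the level of CCD7 and leaf markers were therefore not analysed here, and no sequence is shown. Genes are given by the locus ID of the table, at most 2 higher and 2 lower per comparison. On the first principal component of the 12 libraries, with 48.6% of the variance, the wild type lay at 45.0 to 80.5. The depleted line lay at −84.5 to −62.4, except for replicate 16 of recovery 1, which stood at −4.10.

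The response to the first recovery differed between the genotypes for 307 of 20373 genes, 1.51% of those tested (edgeR quasi-likelihood test, Benjamini-Hochberg adjusted p under 0.05). The depleted line had the lower response for 255 of them (1.25%) and the higher response for 52 (0.255%). Among the 255, the median interaction was −1.36 on the log2 scale, with quartiles of −1.62 and −1.09. For the 52 it was 1.23, with quartiles of 0.93 and 1.76. The median over all genes tested was −0.00. A size of at least 1 was reached by 212 of the 255 and 36 of the 52, and a size of at least 2 by 21 and 10. The called genes were well read, with a median mean log2 CPM of 4.82 for the 255 and 5.94 for the 52, against 3.61 for all genes tested.

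The count rested on single libraries. The direction of its members did not, but their choice by a called interaction largely fixes that. Without 1 library the count was 96 or 19 (irrigated depleted replicate 6 or 7), 69 or 22 (depleted recovery 1 replicate 16 or 12), 10 or 22 (wild-type recovery 1 replicate 1 or 13), and 11 or 12 (irrigated wild-type replicate 6 or 7). It rose to 545 without irrigated depleted replicate 3, to 374 without depleted recovery 1 replicate 17 and to 390 without wild-type recovery 1 replicate 4. Without irrigated wild-type replicate 14 it was 211. With the 4 groups fitted alone it was 3, and DESeq2 gave 767, of which 516 were lower (67.3%, against 83.1% with edgeR). All 307 genes kept their sign under each of the 19 alternatives run, most of which share nearly all their libraries with the edgeR test. The number called in every one of the 12 fits without 1 library was 10, of which 8 were lower and 2 higher.

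**Figure D1:**
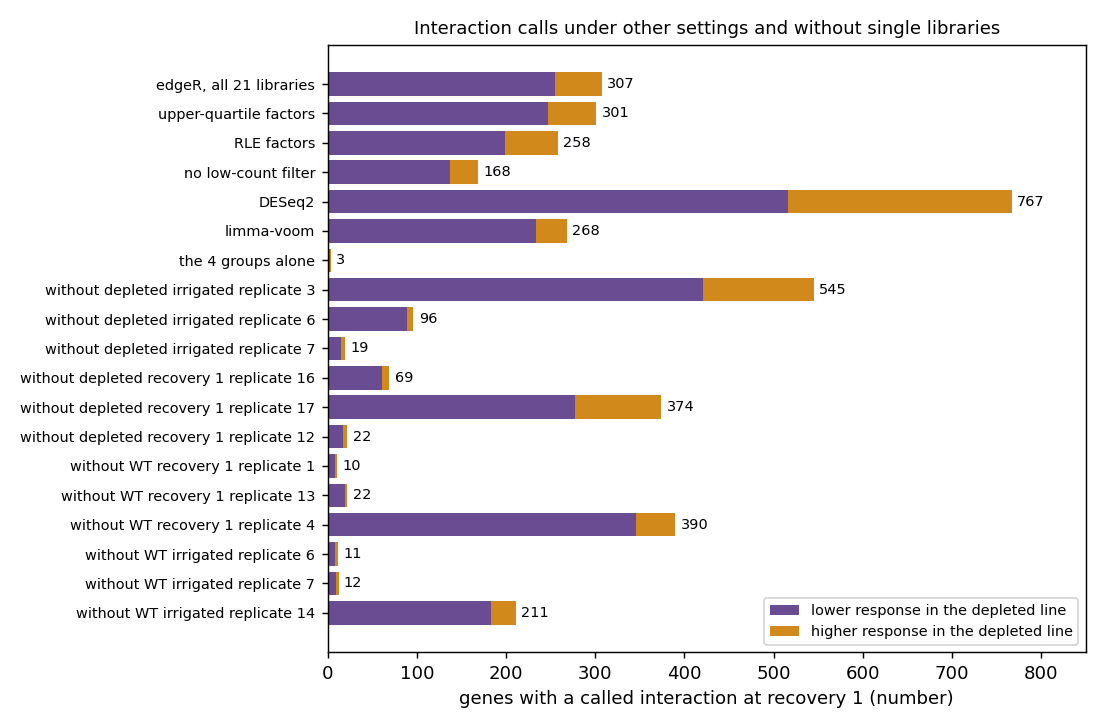
Number of genes with a called interaction at recovery 1 (horizontal axis, from 0) under each setting, split into genes with a lower (violet) and a higher (orange) response in the depleted line. The edgeR test on all 21 libraries calls 307, and leaving out 1 library moves this between 10 and 545.

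The genes whose interaction had the smallest p are described with every library. Solyc08g061590.3 stood at 22.5, 24.4 and 23.3 CPM in irrigated depleted plants and at 47.8, 49.9 and 48.2 CPM in the depleted line at recovery 1. In the wild type it stood at 65.7, 69.7 and 70.7 CPM under irrigation and at 51.3, 52.3 and 66.1 CPM at recovery 1. The irrigated depleted libraries were the lowest of the 12, and the ranges of the depleted line did not overlap between the conditions. The wild-type ranges of this gene overlapped, at 66.1 against 65.7 CPM. It rose by 1.06 ± 0.12 (log2, SE) in the depleted line (edgeR adjusted p = 0.000602) and had a log2 value of −0.28 ± 0.12 in the wild type, without being called (edgeR adjusted p = 0.698). Its interaction was 1.34 ± 0.17 (log2, SE, edgeR adjusted p = 0.00380), a 2.53-fold higher ratio of recovery to irrigation in the depleted line, and it was called under all 19 alternatives.

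Solyc08g005450.2 gave the same order of groups at a higher level. In irrigated depleted plants it stood at 59.2, 65.5 and 56.2 CPM, and at recovery 1 at 125, 101 and 111 CPM. The wild type stood at 158, 177 and 159 CPM under irrigation and at 133, 128 and 134 CPM at recovery 1. Neither genotype's ranges overlapped between the conditions, and the 2 genotypes moved towards each other. Its interaction was 1.22 ± 0.16 (log2, SE, edgeR adjusted p = 0.00397), from 0.90 ± 0.11 in the depleted line and −0.32 ± 0.11 in the wild type, the latter not called (edgeR adjusted p = 0.689).

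In Solyc06g068400.3 the irrigated depleted plants were instead the highest group. The irrigated depleted libraries stood at 13.7, 17.1 and 22.3 CPM and those at recovery 1 at 4.86, 4.05 and 5.89 CPM. Wild-type libraries held 4.96, 5.27 and 5.63 CPM under irrigation and 8.09, 8.04 and 5.67 CPM at recovery 1. All 3 irrigated depleted libraries lay above the other 9, and the depleted line at recovery 1 overlapped the irrigated wild type. The interaction was −2.30 ± 0.29 (log2, SE, edgeR adjusted p = 0.00380), from −1.84 ± 0.21 in the depleted line and 0.46 ± 0.20 in the wild type.

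Solyc07g064350.2 stood at 24.6, 27.1 and 32.7 CPM in irrigated depleted plants and at 10.2, 13.1 and 13.2 CPM at recovery 1. In the wild type it was at 6.16, 6.49 and 7.37 CPM under irrigation and at 12.1, 10.3 and 7.57 CPM at recovery 1. The irrigated groups were 4.21-fold apart, whereas at recovery 1 the ranges of the genotypes overlapped. Its interaction was −1.79 ± 0.24 (log2, SE, edgeR adjusted p = 0.00397). It and the 2 preceding genes were called under 18 of the 19 alternatives. Fitted with the 4 groups alone, they missed the threshold, at edgeR adjusted p of 0.0595, 0.0595 and 0.0667.

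**Figure D2:**
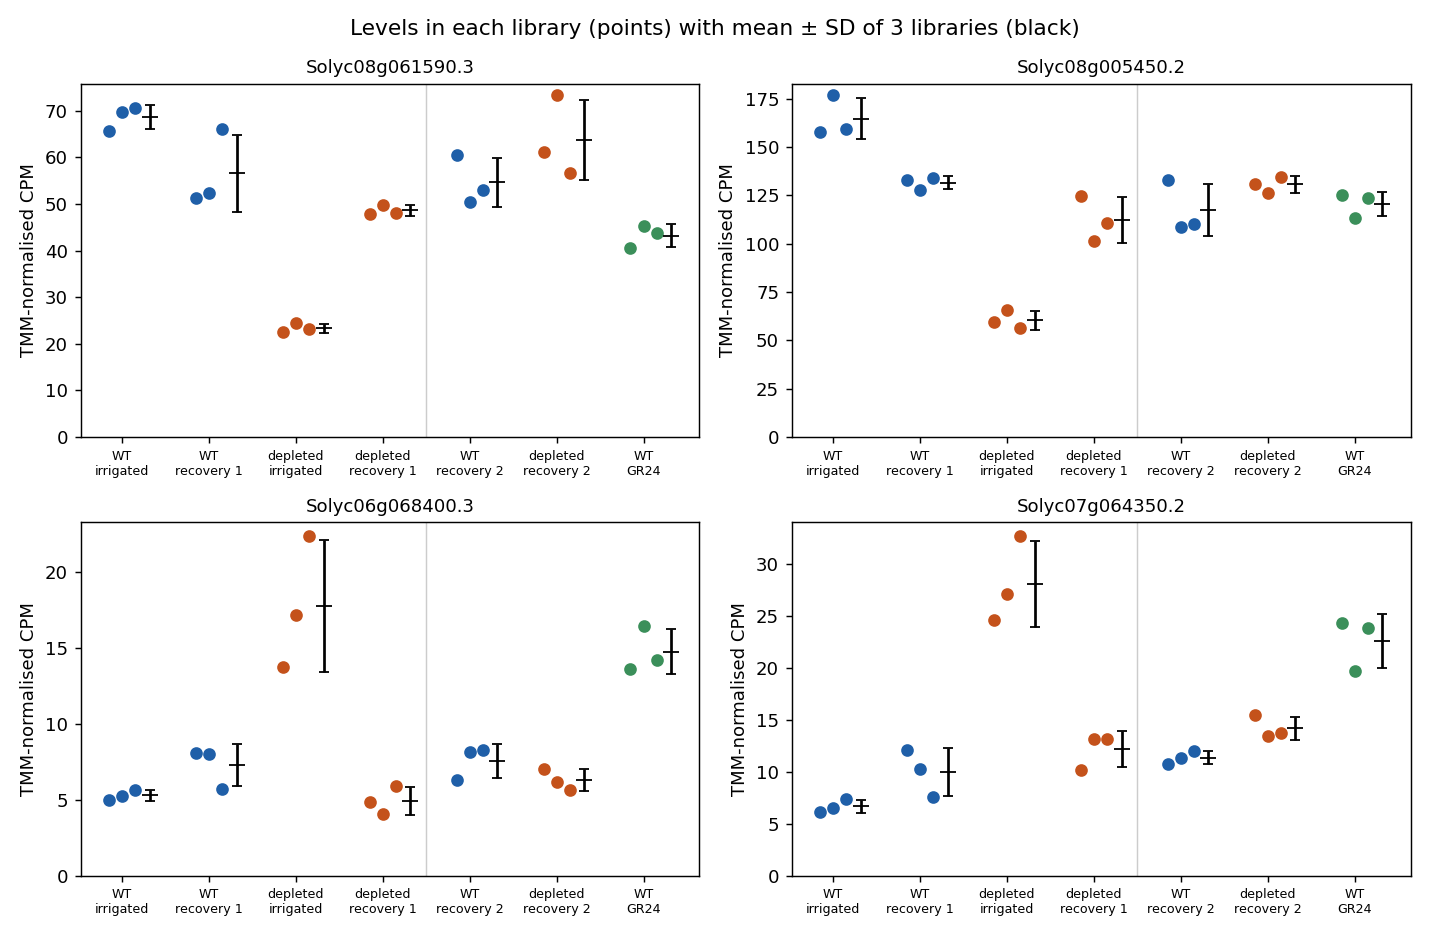
TMM-normalised CPM (vertical axes, from 0) of the 4 genes in each of the 21 libraries, by group, with the mean and SD of 3 libraries in black; blue is wild type, orange the depleted line and green GR24-sprayed wild type. In the upper 2 genes the irrigated depleted libraries are the lowest of the 21, and in the lower 2 they lie above all other unsprayed libraries.

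The irrigated depleted plants were the group that stood apart in nearly all of the 307 genes. Of the 255 genes with a lower response, 247 had their highest mean of the 4 groups there (6320 of all 20373 tested), and for 229 all 3 irrigated depleted libraries lay above the other 9 (7.27% of all). Of the 52 genes with a higher response, 49 had their lowest mean there (6413 of all 20373), and for 44 all 3 libraries lay below the other 9 (5.34% of all). The interaction was called on these same libraries, so the counts describe the shape of the called genes and support nothing more. Genes called under other settings were counted in the same way, with group means over all libraries. Of the 69 genes called without depleted recovery 1 replicate 16, which stood apart on the first component, 67 were among the 307. Of the 61 lower ones, 57 had their highest mean in irrigated depleted plants. Among the 516 lower genes of DESeq2 the number was 493, and its calls held 306 of the 307. These genes too were chosen by the interaction and largely repeat the 307, so the counts add no support.

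The scaling factors of the irrigated depleted libraries, at 0.760 to 0.890, reached the lowest of the 4 groups. They overlapped those of the depleted line at recovery 1, at 0.882 to 1.08. They lay below those of irrigated wild type, at 0.905 to 1.10, and of wild type at recovery 1, at 1.07 to 1.17. In the irrigated depleted libraries the 10 most abundant genes took 9.16% to 11.5% of counts. That range overlapped those of irrigated wild type, at 8.69% to 10.1%, and of the depleted line at recovery 1, at 7.72% to 10.5%, and lay above that of wild type at recovery 1, at 7.71% to 8.21%. With upper-quartile factors in place of TMM factors 301 genes were called, 299 of them among the 307. With RLE factors the numbers were 258 and 251. The part of composition in the result was not tested beyond these scalings.

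Side by side, the medians of the 255 genes were −1.21 for the response of the depleted line and 0.14 for that of the wild type (log2 differences). For the 52 genes they were 1.07 and −0.20. Over all genes tested, the medians were 0.01 and 0.02. The 2 responses had opposite signs in 218 of the 255 genes and in 45 of the 52, against 8043 of all 20373. The response of the depleted line was the larger in size for 249 and 49 of them, against 13148 of all. The choice of called interactions largely fixes these counts. In the wild type none of the 307 was called in its own right, as no gene was in that comparison (edgeR, 0.0% of those tested, with 1380 at an unadjusted p under 0.05, and 32 by DESeq2). Missing the threshold does not show that the wild type did not change.

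**Figure D3:**
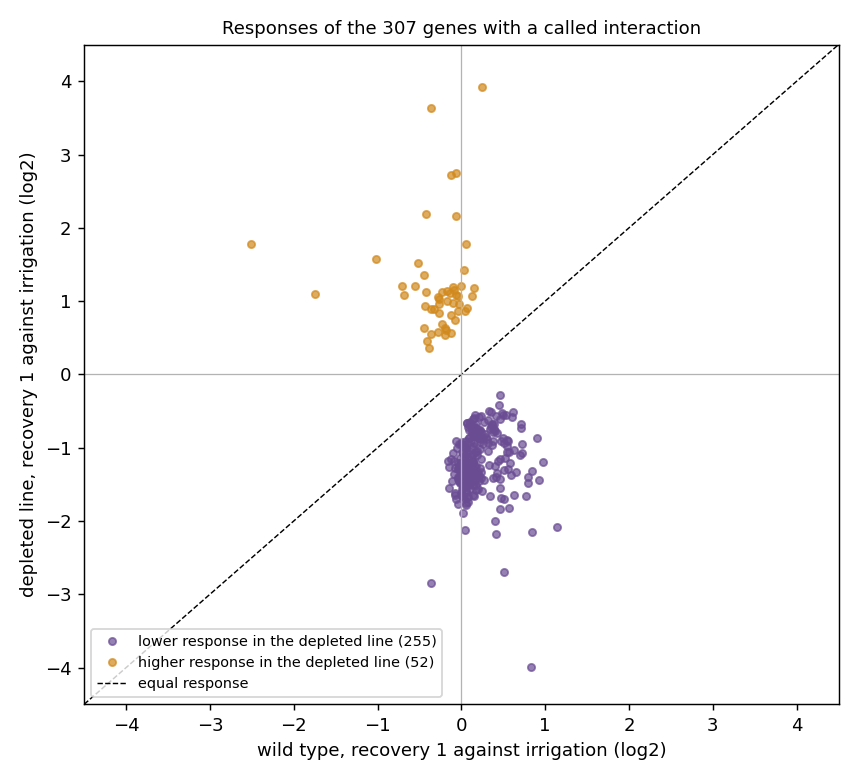
Log2 difference between recovery 1 and irrigation in the wild type (horizontal axis) and in the depleted line (vertical axis) for the 307 genes; the dashed line marks equal responses. The 255 violet genes lie below 0 and the 52 orange genes above 0 on the vertical axis, while wild-type values lie close to 0 for most.

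The depleted line alone had 1713 genes called between irrigation and recovery 1, or 8.41% of those tested, and more of them than of all genes had a wild-type value of the same sign. The 2 responses share no library. Of 576 genes called higher at recovery 1 in the depleted line (2.83% of those tested), 66.0% had a log2 value above 0 in the wild type, against 52.3% of all genes. Of 1137 called lower (5.58% of those tested), 58.3% had a value below 0 there, against 47.6% of all. The wild-type values were small, with medians of 0.11 and −0.05, where the depleted line had 0.94 and −0.95. The interaction was called for 8.33% of the 576 and for 21.7% of the 1137, against 1.51% of all genes, but the depleted response by which these genes were chosen is itself a term of the interaction, so nothing is read from those shares. The 1713 calls numbered 747 and 661 without irrigated depleted replicates 6 and 7, 728 and 833 without depleted recovery 1 replicates 16 and 12, and 0 with those 2 groups fitted alone. The called genes were 1217 higher and 1521 lower by DESeq2. Solyc03g081220.1, a gene of small p in this response, went from 43.5, 57.9 and 47.7 CPM to 24.9, 21.9 and 18.7 CPM in the depleted line. Wild-type libraries were at 25.6 to 31.04 CPM under irrigation and 25.7 to 29.6 CPM at recovery 1, and those ranges overlapped. The interaction of this gene was −1.10 ± 0.19 (log2, SE, edgeR adjusted p = 0.0153). The call was lost with the 4 groups alone and without depleted recovery 1 replicate 12, wild-type recovery 1 replicate 1 or irrigated wild-type replicate 6 or 7, at adjusted p of 0.0529 to 0.0887.

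Read the other way, the interaction is the genotype difference at recovery 1 minus that under irrigation. For the 255 genes the median genotype difference (depleted line minus wild type, log2) was 1.24 under irrigation and −0.10 at recovery 1. For the 52 genes it was −1.43 and −0.22. The sizes of these differences, without sign, had a median of 1.25 under irrigation and 0.19 at recovery 1 for the 255, and of 1.43 and 0.43 for the 52. Over all genes tested they were 0.55 and 0.42. The genotypes thus stood closer at recovery 1 than under irrigation for 239 of the 255 and 45 of the 52 genes, counts that the choice of called interactions largely fixes. Closing was incomplete for Solyc05g055160.3, a gene of small p in the irrigated genotype comparison. It stood at 357, 334 and 324 CPM in irrigated depleted plants and at 915, 634 and 706 CPM at recovery 1. Irrigated wild type held 1631, 1769 and 1782 CPM, and wild type at recovery 1 held 1613, 1537 and 1724 CPM. The depleted ranges did not overlap each other, and both lay below every wild-type library. The interaction was 1.24 ± 0.21 (log2, SE, edgeR adjusted p = 0.0153), and a genotype difference of −1.11 ± 0.15 remained at recovery 1 (log2, SE, edgeR adjusted p = 0.000222). Its interaction lost the call in 6 of 19 alternatives, at adjusted p of 0.0504 to 0.0828. These were the 4 groups alone and the fits without irrigated depleted replicate 7, wild-type recovery 1 replicate 1 or 13, or irrigated wild-type replicate 6 or 7.

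At recovery 1 the genotypes differed for 3999 genes, 19.6% of those tested, 9.92% higher and 9.71% lower in the depleted line. That number was 2420 and 2002 without depleted recovery 1 replicates 17 and 12, 1925 without wild-type recovery 1 replicate 1, and 2430 with both groups alone. A large genotype difference could also be of like size at both times. Solyc05g007020.3, again of small p in the irrigated genotype comparison, was at 204 to 251 CPM in irrigated depleted plants and at 182 to 237 CPM at recovery 1. Wild-type libraries were at 50.4 to 66.9 CPM and 47.3 to 54.0 CPM. Its genotype difference was 1.91 ± 0.15 under irrigation and 2.00 ± 0.15 at recovery 1 (log2, SE), and the interaction of 0.10 ± 0.20 was not called (edgeR adjusted p = 0.924).

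The libraries of the second recovery are in neither term of the interaction. They did enter its shared estimate of spread, so they are not wholly independent of the choice of the called genes. At the second recovery the genotype difference was called for 5423 genes, 26.6% of those tested, but for 34 of the 255, or 13.3%. In the depleted line 3.14% of the 255 stood higher (8 genes, against 14.9% of all genes) and 10.2% lower (26 genes, against 11.7% of all). Their median difference was −0.01 (log2), against 0.02 over all genes. Of the 52 genes, 19 were called, 7 higher and 12 lower, or 36.5%, with a median of 0.00. Without sign, the median size was 0.20 for the 255 and 0.44 for the 52, against 0.48 for all genes. At the second recovery, then, the 255 genes were called at a share below that of all genes, and the 52 at a share above it. Both sets were chosen in part by their genotype difference at recovery 1, where 9.02% of the 255 and 40.4% of the 52 were called, against 19.6% of all. How far the shares at recovery 2 follow from that choice was not tested. The number of 34 was 19 and 18 without depleted recovery 2 replicates 13 and 11, and 19 and 17 without wild-type recovery 2 replicates 11 and 9. All genes called numbered 3468 without that last library. With upper-quartile factors 2507 of all genes were higher and 3054 lower, against 3040 and 2383.

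**Figure D4:**
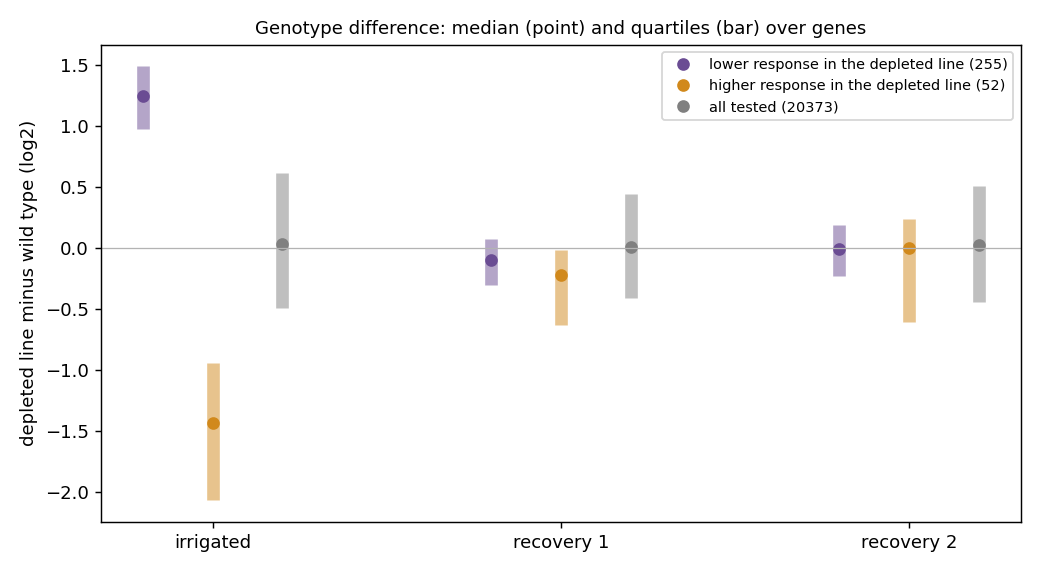
Genotype difference (depleted line minus wild type, log2; vertical axis) under irrigation and at both recoveries, as the median (point) and quartiles (bar) over the 255 genes with a lower response, the 52 with a higher response and all 20373 tested. The medians of 1.24 and −1.43 under irrigation, which the interaction uses, stand beside −0.01 and 0.00 at recovery 2, where all genes have 0.02. Recovery 2 enters the interaction only through the shared estimate of spread. The quartiles of the 52 at recovery 2 are −0.61 and 0.23.

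Whether the interaction at the first recovery differed from that at the second was tested directly, as the genotype difference at recovery 1 minus that at recovery 2, in which the irrigated libraries cancel. No gene was called by edgeR (0.0% of those tested, smallest adjusted p = 0.0825), while 2126 had an unadjusted p under 0.05. DESeq2 called 55, and edgeR called 1 without wild-type recovery 2 replicate 8. Over the 255 genes the median of this difference was −0.09, and over the 52 it was −0.19, against −0.05 over all genes (log2). The interaction at recovery 2 was called for 1415 genes, 6.95% of those tested, 3.12% higher and 3.82% lower. By DESeq2 it was called for 2347. It was called for 901 and 628 without irrigated depleted replicates 6 and 7, 743 and 858 without depleted recovery 2 replicates 13 and 11, 787 and 597 without wild-type recovery 2 replicates 11 and 9, and 494 without irrigated wild-type replicate 7. The 2 interactions share the irrigated libraries, so their values are given side by side. Solyc08g061590.3 had 1.34 ± 0.17 at recovery 1 and 1.78 ± 0.17 at recovery 2 (log2, SE), Solyc06g068400.3 had −2.30 ± 0.29 and −2.01 ± 0.29, and the median over the 255 was −1.36 and −1.24. At recovery 2 the depleted line held 61.3, 73.3 and 56.7 CPM of Solyc08g061590.3, above its 47.8 to 49.9 CPM at recovery 1.

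Solyc03g116380.3 was among the genes of smallest p in the interaction at the second recovery. Depleted libraries went from 13.1, 16.96 and 25.5 CPM under irrigation to 7.42, 7.56 and 7.73 CPM at recovery 1 and 6.31, 7.71 and 7.59 CPM at recovery 2. Wild-type libraries stood at 5.97, 7.54 and 9.84 CPM, then 13.3, 10.2 and 10.9 CPM, then 12.9, 16.2 and 19.9 CPM. The depleted recovery groups lay below the wild-type ones, the reverse of irrigation, although the genotype difference was called only at recovery 2 (edgeR adjusted p = 0.00136) and not at recovery 1 (adjusted p = 0.0658). The interaction was −1.85 ± 0.32 at recovery 1 (log2, SE, edgeR adjusted p = 0.0153). Solyc03g118680.3 held 21.2 to 32.8 CPM in irrigated depleted plants and 10.01 to 10.6 CPM at recovery 1, against 9.85 to 13.04 and 11.7 to 13.01 CPM in the wild type, and its interaction reached −1.54 ± 0.25 (log2, SE, with edgeR adjusted p = 0.0137). Both lost the call at recovery 1 with the 4 groups alone, and without wild-type recovery 1 replicate 1 or irrigated wild-type replicate 6 or 7, at adjusted p of 0.0529 to 0.0792. The former lost it also without depleted recovery 1 replicate 12 (adjusted p = 0.0549).

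The GR24-sprayed libraries, which enter the interaction only through the shared estimate of spread, lay on the side of the irrigated depleted line. Taken relative to the irrigated wild-type mean, the median log2 level of the 255 genes was 0.62, 0.97 and 0.80 in the 3 sprayed libraries. In the irrigated depleted libraries it was 0.94, 1.23 and 1.47. The remaining 15 libraries lay between −0.09 and 0.33, so that the sprayed libraries stood above all of them. For the 52 genes the sprayed libraries were at −0.64, −0.68 and −0.55, the irrigated depleted ones at −1.40, −1.43 and −1.43, and the depleted line at recovery 1 at −0.29, −0.69 and −0.56, which overlaps the sprayed range.

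A comparison of sprayed wild type with wild type at recovery 2, chosen after these values were seen, uses none of the libraries that form the interaction. Its libraries did enter the shared estimate of spread by which the 255 and 52 genes were called. This comparison called 171 of the 255 genes higher in the sprayed plants, or 67.1%, against 15.3% of all genes tested. It called 1 lower, or 0.392%, against 10.8%. Of the 52 genes it called 19 lower, or 36.5%, and 4 higher, or 7.69%. The median of the 255 was 0.68 and that of the 52 −0.37, against 0.05 over all genes (log2). The number of 171 was 104 without wild-type recovery 2 replicate 8 (10.8% of all genes were higher in that fit) and 109 with both groups fitted alone (8.16% of all). Time labels and drought history differ between these groups, and their part in the difference was not tested.

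Solyc07g064350.2 held 24.3, 19.7 and 23.8 CPM in sprayed wild type, above the 10.7, 11.4 and 12.0 CPM of wild type at recovery 2 and just below the lowest irrigated depleted library, at 24.6 CPM. The difference was 0.99 ± 0.17 (log2, SE, edgeR adjusted p = 0.000585) and was called under all 13 alternatives. Sprayed libraries held 13.6, 16.4 and 14.2 CPM of Solyc06g068400.3, against 6.29, 8.14 and 8.24 CPM, with a difference of 0.96 ± 0.20 (log2, SE, edgeR adjusted p = 0.00247), also called under all 13. For Solyc08g061590.3 the sprayed libraries were lower, at 40.6, 45.4 and 43.7 CPM against 60.6, 50.4 and 53.0 CPM. The log2 value of −0.34 ± 0.12 passed narrowly (edgeR adjusted p = 0.0448) and missed the threshold in 8 of 13 alternatives, among them the fits without any 1 of the 6 libraries, at adjusted p of 0.0503 to 0.179. Solyc08g005450.2 had a value of 0.04 ± 0.11 and was not called (edgeR adjusted p = 0.819).

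**Figure D5:**
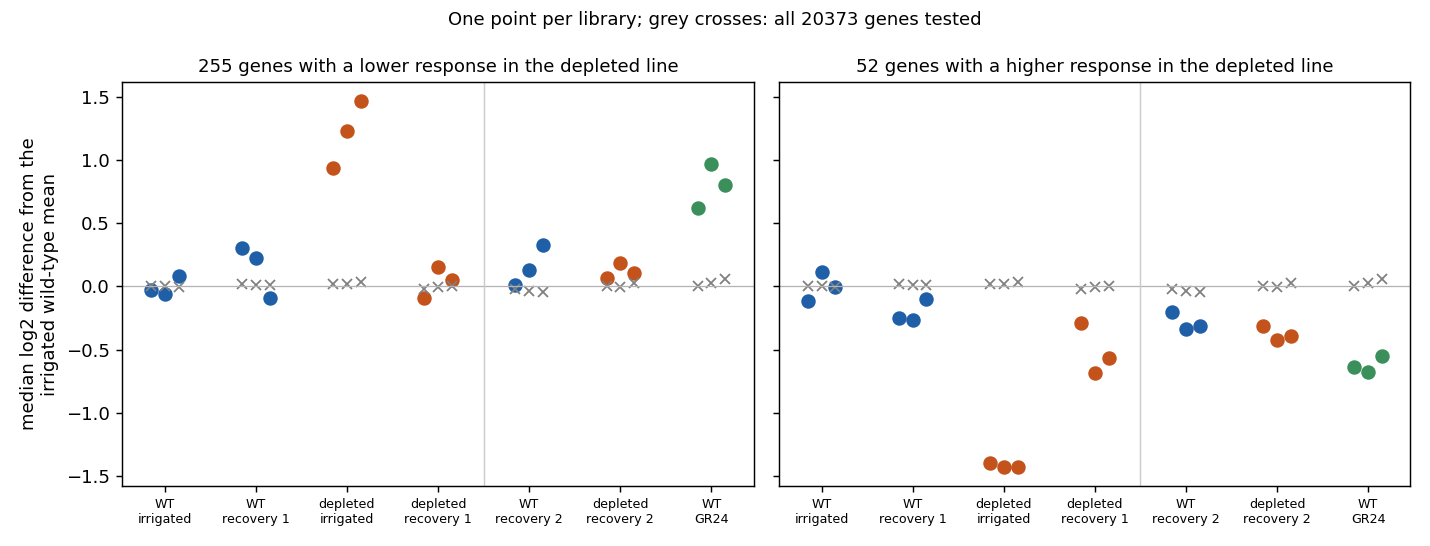
Median over genes of the log2 level relative to the irrigated wild-type mean (vertical axes), 1 point per library, for the 255 genes with a lower and the 52 with a higher response in the depleted line; grey crosses give all 20373 genes tested. Irrigated depleted libraries lie at 0.94 to 1.47 and −1.43 to −1.40, and sprayed wild type at 0.62 to 0.97 and −0.68 to −0.55.

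The 307 genes lay on each of chromosomes 1 to 12, at unequal shares, as far as the IDs show it. The number after the Solyc prefix gives the chromosome. Between 0.732% (chromosome 2) and 2.50% (chromosome 6) of tested genes were called, against 1.51% of all, and the differences between chromosomes were not tested. Chromosome 6 held 44 of them, 38 lower and 6 higher. Of 20293 pairs of tested IDs that follow each other on a chromosome, 5 had both members called, 4 of them in the same direction. With 1.51% of all IDs called, some such pairs arise without clustering. Their number was not worked out, so nothing is read from the 5. Close copies of a gene often lie side by side, and the sources used here do not say how reads shared between copies were counted. None of the 67 tested IDs with the ENSRNA prefix was called, but at the 1.51% of all tested IDs so few IDs allow no reading of this. Among the 307 genes, 1 had a group of the 4 with 3 counts or fewer in all. This gene, Solyc03g116970.2, named after its values were seen, also had the most negative fitted interaction, at −4.82 ± 1.05 (log2, SE). Its mean in the depleted line at recovery 1 was 0.0363 CPM, below the floor, so that the fitted size is not a measured fold.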

How the data were processed

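The authors deposited raw read counts, whole numbers without normalisation, in 1 table with a column per library and a row per gene ID. HISAT2 and HTSeq were used, per the submitters' processing notes. The sources used here give no versions, settings or build. The kit used for the libraries does not mark strand, per the labels' protocols, so overlapping antisense genes cannot be told apart. A further 6 columns match no sample and were not used. Groups and replicate numbers come from the sample titles.

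Counts were analysed with edgeR 4.0.16 in R 4.3.3. filterByExpr on the 7 groups left 20373 of 35039 IDs, and library sizes were scaled by TMM. One robust quasi-likelihood fit with 1 mean per group over 21 libraries (14 residual degrees of freedom) gave all comparisons, adjusted over all IDs tested. The standard error is the size of the log2 value over the root of its F statistic. CPM values are TMM-normalised. Principal components used log2 CPM with a prior count of 2. Replicate pairs had a chi-square per degree of freedom of 28.9 to 334, and none was treated as 1 library. The fit was also run on simulated counts with changes in the depleted line at recovery 1 alone. The outcome is not reported here and is not used as support. Floors cover counting error only, while standard errors include the spread between libraries.

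Named IDs are the called ones of smallest p per comparison, 2 in each direction, among those whose mean log2 CPM reached 1; those printed are the ones that bear on the interaction. None of the IDs matched the 41476 genes of the RefSeq table (assembly SLM_r2.1), so the gene lists planned by product name could not be used. Comparisons, rules and lists were chosen with earlier results of these data known. Alternatives were other scalings, no filter, DESeq2 1.42.0, limma-voom 3.58.1 with and without a replicate block, the compared groups alone, a log2 size of at least 1, and each library left out in turn.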

Additional observations from a re-analysis of the deposited data

Results flagged for a closer look

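The genes below are listed because their response to the first recovery differed between the 2 genotypes by a test of the difference itself, the interaction (edgeR, adjusted p under 0.05). There were 307 such genes. Those named in the text had interactions of 1.34 (Solyc08g061590.3), 1.22 (Solyc08g005450.2) and 1.24 (Solyc05g055160.3) with a higher response in the depleted line, on the log2 scale. With a lower response there were −2.30 (Solyc06g068400.3), −1.79 (Solyc07g064350.2), −1.85 (Solyc03g116380.3), −1.54 (Solyc03g118680.3) and −1.10 (Solyc03g081220.1). For all 8 the sign was the same in each of the 19 alternatives run, which the choice of called genes largely fixes. Most of the alternatives share nearly all their libraries with the test that chose these genes. The call itself held in 13 (Solyc05g055160.3) to 19 (Solyc08g061590.3) of the 19.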

How the results depend on the processing

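Over 9 comparisons, 103 alternative counts of called genes lay within 1.5 times the reported one and 41 did not. For the interaction at recovery 1 (307), they were 168 with no low-count filter, 767 with DESeq2, 3 with the 4 groups alone and 10 to 545 without 1 library. DESeq2 also gave 2347 for the interaction at recovery 2 (1415), 55 for the difference of the 2 interactions (0), 2738 for the response of the depleted line (1713) and 32 for that of the wild type (0). With the compared groups alone, the response of the depleted line had 0 calls, the genotype difference at recovery 1 (3999) 2430, and GR24 against recovery 2 (5315) 3008. A log2 size of at least 1 left 788 in the depleted response, 2871 for GR24, and 3734 of 7001, 2236 and 3180 in the genotype differences under irrigation, at recovery 1 and at recovery 2. Without 1 library, counts ranged from 494 to 1947 (interaction at recovery 2), 0 to 1 (difference of the interactions), 661 to 2526 (depleted response), 0 to 0 (wild-type response), 4822 to 6566, 1925 to 4562 and 3468 to 4817 (genotype differences in the same order), and 3520 to 5282 (GR24). The causes were not tested, except that fits with fewer libraries have fewer degrees of freedom.

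The groups share some replicate numbers, and the labels do not say what a number marks. Deviations of same-numbered libraries from their group means had an r of 0.06 and −0.05 for the irrigated pairs, and of −0.36 to 0.17 over 10 pairs. The minimum of 0.1 set for a joint deviation was passed by replicate 11 of sprayed wild type. Its r was 0.17 with replicate 11 of wild type at recovery 2 and 0.13 with that of the depleted line at recovery 2. A fixed block could not be fitted, since the recovery 1 libraries of the depleted line share no number with another group. limma-voom with the number as a replicate block (estimated correlation −0.03) called 251 genes for the interaction at recovery 1, against 268 without the block. Of the 255 genes the GR24 comparison called 174 higher with the block and 176 without. The median over all genes of the interaction moved by less than 0.1 under every scaling. Depth limited low genes: a level below a library's own floor, 0.0843 to 0.144 CPM over the 12 libraries of the interaction, could not be told from that floor.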
